A study of Homo sapiens with 4 samples.

Results

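The 43 genes described here encode proteins that drive, build or police mitosis, and they were chosen by name from a fixed list of symbols. All 43 have a row among the 57746 genes of the deposited expression table, and all 43 reached 1 RPKM (reads scaled to gene length and library size) in each library. Total RNA was sequenced from 4 human colorectal cancer lines with 1 library each. DLD1 is the parental line, labelled epithelial, and 3 lines were derived from it: SA from colonies grown in soft agar and SPH from colonospheres, both labelled mesenchymal, and METS from a lung metastasis of a xenograft, labelled epithelial. All 4 lines were kept in McCoy's 5A medium with fetal bovine serum, and the labels name no transgene or drug treatment. Whether a derived line is 1 clone or a pool is not stated in the labels.

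Mitosis starts when cyclin A and cyclin B activate the kinase CDK1, and it is carried on by the Aurora and Polo-like kinases. Kinesin motors and other microtubule-binding proteins build the spindle, kinetochores attach chromosomes to it, and the spindle checkpoint holds back the anaphase promoting complex until all chromosomes are attached. Most of these genes are transcribed late in the cell cycle, so in growing colorectal cancer cells their RNA is known as a mark of proliferation. In a bulk sample, fewer dividing cells and less RNA per dividing cell cannot be told apart.

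The 4 libraries had similar overall composition. From 10920 to 11238 genes reached 1 RPKM per line, and 25.5% to 26.6% of the summed RPKM came from the mitochondrial genome. The step between low values of short genes put the depth at 48.6 to 53.9 reads for a 1 kb gene at 1 RPKM. The step was less sharp in SA and METS, where another period scored 0.409 and 0.315 against 0.499 and 0.504 for the chosen one. The members then rested on an estimated 869 reads (SPC25) to 27661 reads (TOP2A), and counting alone gave 95% half-widths of 0.02 to 0.13 on the log2 scale for a difference from DLD1. Spread between replicate cultures is unknown, since each line has 1 library. Of 8 colorectal epithelial markers 7 reached 1 RPKM in a line, and their summed level ran from 1396 RPKM in SA to 2346 in METS. EPCAM lay between 212 and 263 RPKM. The keratins KRT8 and KRT18, which hold most of that sum, were lowest in SA and highest in METS. KRT20 ran from 21.9 RPKM in DLD1 to 0.5 in METS. CDH1 had 115.3 RPKM in DLD1 against 102.7 in METS, and CDX2 31.9 against 27.6. VIL1 had 1.39 RPKM in DLD1 against 3.35 in METS, and LGALS4 0.44 against 0.31. The summed level of 6 fibroblast markers did not exceed 0.49 RPKM in any line, and that of 5 leukocyte markers lay between 0.78 and 1.76 RPKM, highest in METS. Of these PTPRC, CD3E and MS4A1 are listed at 0 in all 4 lines, CD68 reached 0.4 RPKM at most, and CD14 reached 1.36 RPKM, in METS. The summed level of 4 lung epithelial markers ran from 0.88 RPKM in METS to 1.38 in SPH. That of the 3 endothelial markers with a row did not exceed 0.26 RPKM. The part of these markers in the results was not tested.

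Mitosis genes stood lower in METS than in DLD1 and slightly higher in SA and SPH. Summed over the 43 genes, the level was 1278 RPKM in the parent against 1325 in SA, 1336 in SPH and 1073 in METS. METS is the 1 line below the parent by this sum. On the scale of log2(RPKM + 1), 35 of 43 genes were below DLD1 in METS, where 54.9% of all 11275 genes tested were below it. The median difference of the 43 genes was -0.22 in METS, against -0.03 for all genes tested. A difference of at least 0.32 on this scale is called a step here. In METS 13 members were a step lower and 0 a step higher, where 12.0% and 7.46% of all genes tested were. NUSAP1 was the 1 member at least 2-fold lower (0.896% of all genes), and none was 2-fold higher (0.514%). The 8 genes above DLD1 in METS were ANLN, ASPM, CENPE, ECT2, HMMR, MAD2L1, PLK4 and TTK (44.7% of all genes). Of these, MAD2L1, PLK4, ASPM and TTK differed from DLD1 by less than their counting half-width. With a correction for transcript GC content, CENPE and ANLN alone of these 8 stayed above DLD1.

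In SA and in SPH the picture was reversed in sign and smaller. In each of them 32 of 43 genes were above DLD1, where 55.2% of all genes tested were above it in SA and 55.9% in SPH. The other 11 were below it (44.4% and 43.6% of all genes). The median difference of the members was 0.10 in SA and 0.12 in SPH, against 0.03 for all genes in both. With a correction for transcript GC content these medians were 0.03 and 0.05. CENPE in SA was the 1 member a step higher, where 5.02% of all genes passed. No member was a step higher in SPH, where 9.22% of all genes were. None was a step lower in SA or in SPH (5.61% and 6.57% of all genes). These 3 comparisons share the single DLD1 library, so an error in that library would move all of them.

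**Figure D1:**
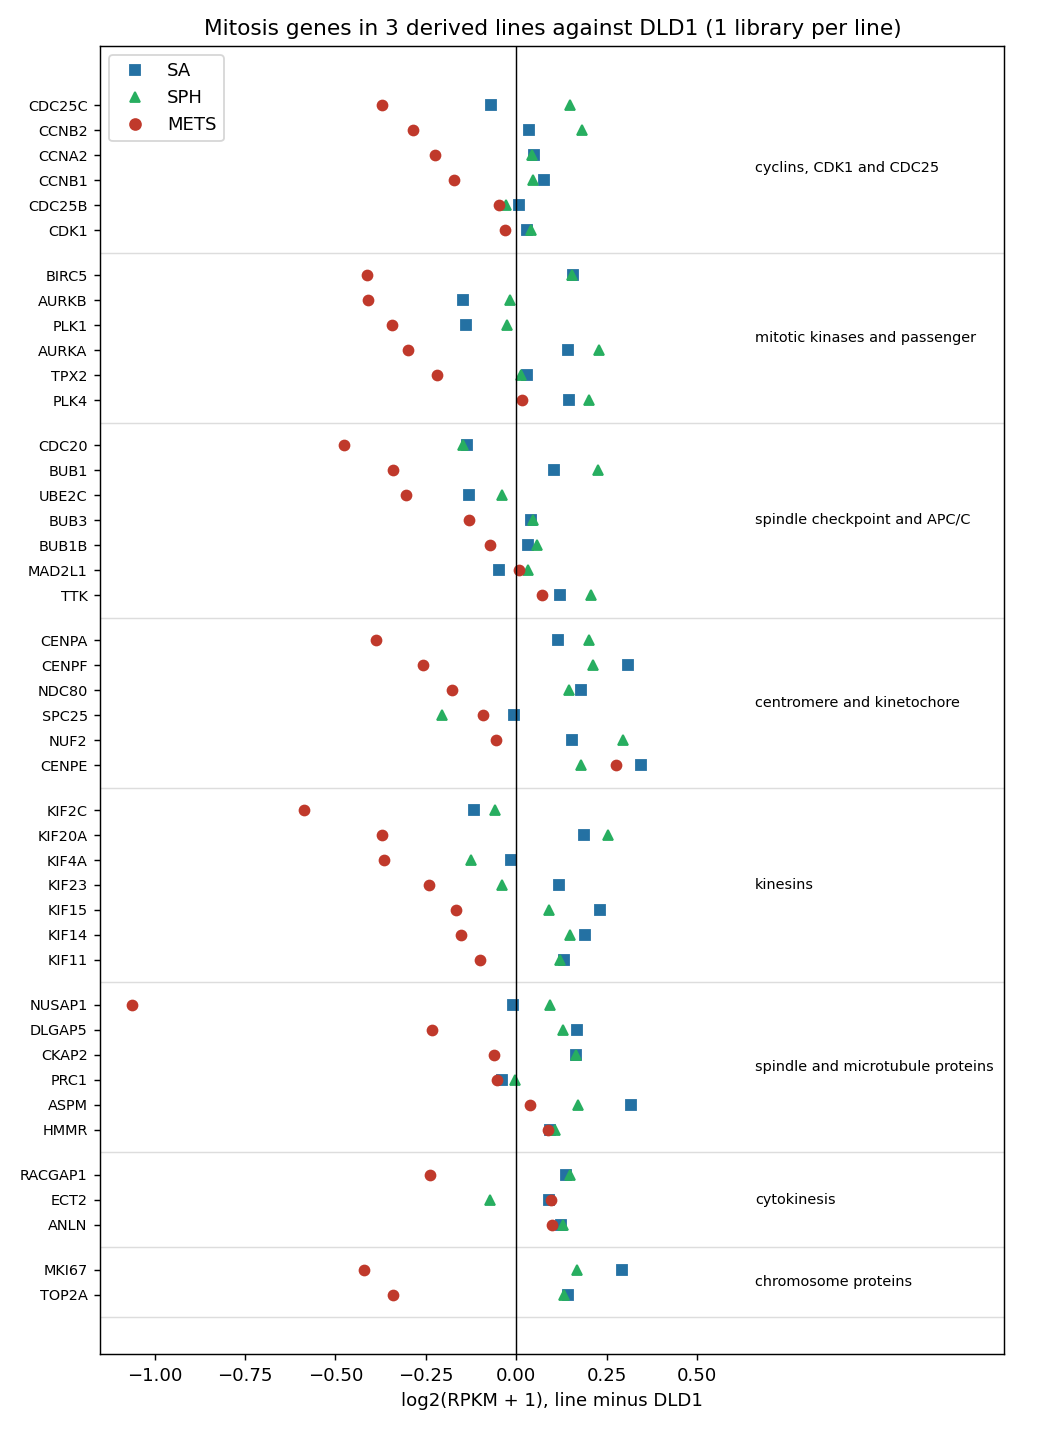
Difference of log2(RPKM + 1) from DLD1 for each of the 43 genes, by role, in SA (squares), SPH (triangles) and METS (circles), 1 library per line. METS lies left of 0 for 35 genes, with NUSAP1 farthest at -1.06, and SA and SPH each lie right of 0 for 32.

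The lines were also ranked for each gene, which needs no baseline. METS was the lowest of the 4 lines for 34 of 43 genes, where it was lowest for 39.4% of 11262 genes tested. DLD1 was lowest for 6 genes (24.3% of all genes tested), which were ANLN, ASPM, CENPE, HMMR, PLK4 and TTK. SPH was lowest for ECT2 and SPC25 (19.9%) and SA for MAD2L1 (15.6%). SA was highest for 17 genes (23.7% of all genes), SPH for 17 (30.0%) and DLD1 for 8 (21.6%). METS was highest for ECT2 alone, where it was highest for 23.8% of all genes tested. Both mesenchymal lines stood above both epithelial lines for 28 of 43 genes, a pattern seen in 24.7% of all genes tested. The reverse pattern was seen in none of the 43 and in 13.1% of all genes tested.

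**Figure D2:**
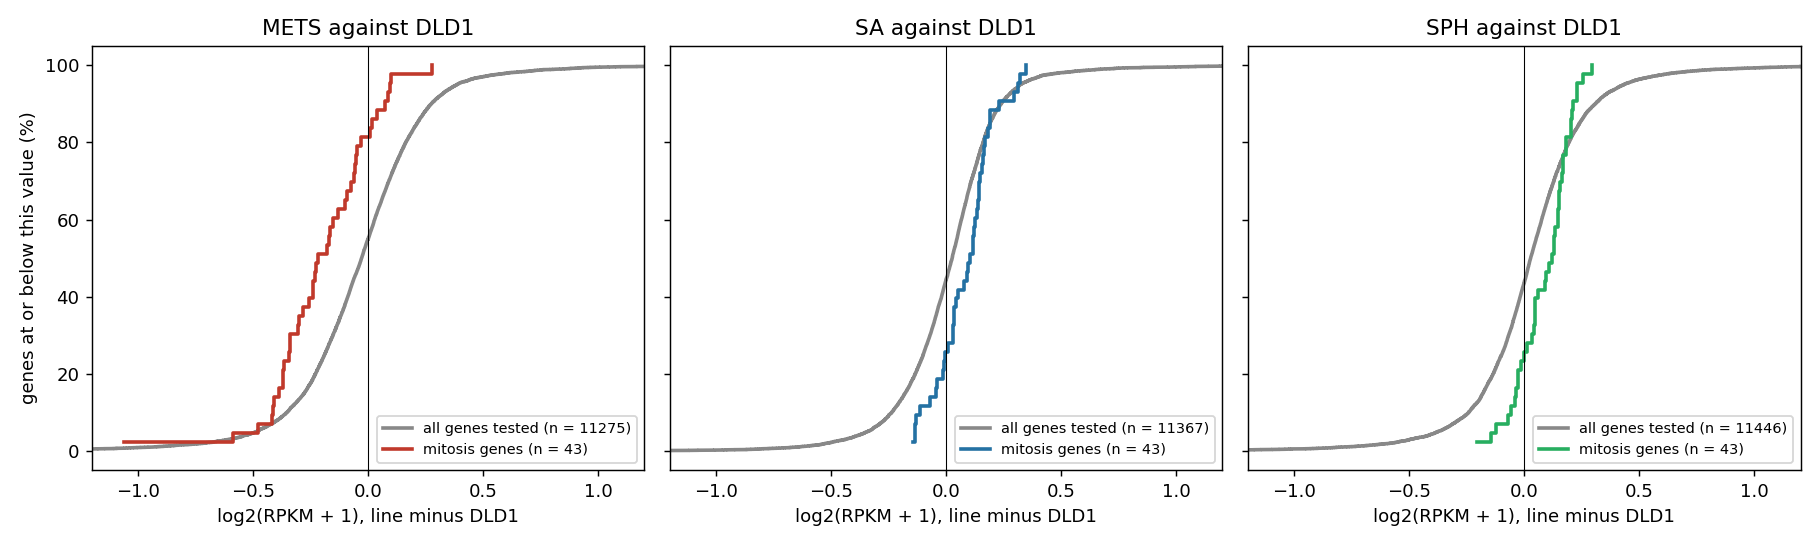
Share of genes (y axis, percent) at or below each difference of log2(RPKM + 1) from DLD1 (x axis), for the 43 mitosis genes (coloured) and all genes tested (grey) in METS, SA and SPH. The coloured curve lies left of the grey curve over most of its range in METS (medians -0.22 and -0.03), and its lower part lies right of it in SA and SPH (medians 0.10 and 0.12 against 0.03).

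Many of the members share short sequence elements near their start sites. Many promoters of this gene class hold a cell cycle genes homology region (CHR), the element bound by the MuvB complex, next to CCAAT boxes, which bind NF-Y. Both were searched on both strands in the window from 250 bases before to 50 bases after the start in the RefSeq table (GRCh38.p14), as TTTGAA or TTCGAA for the CHR and as CCAAT. Of the 43 members 36 have an entry. The CHR letters were found in 27 of the 36 (75%) and in 16.6% of all 27305 promoters of the table. The CCAAT letters were found in 25 of the 36 (69.4%) and in 35.7% of all promoters, and both in 21 of the 36 (58.3%) and in 6.58%. Within 50 bases of the start, 22 of the 36 (61.1%) held the CHR letters, against 5.05% of all promoters. A match is a description of the letters and does not show binding.

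The 120 bases before the start are shown for 8 members, with CHR and CCAAT matches on either strand in capitals, to set genes that were low in METS beside genes that were not. All 8 hold both sets of letters in the searched window, so they do not compare promoters with and without them. KIF2C, CDC25C, CDC25B, CKAP2 and CENPE hold neither set and are not shown. For CDC20 and MKI67 the first bases after the start were not found in an annotated transcript of the gene. Where 2 matches overlap or touch they form 1 run of capitals. CDC20, CENPA, CCNB2, MKI67, NUSAP1 and PLK1 stood from -0.29 to -1.06 against DLD1 in METS, whereas PRC1 and HMMR stood at -0.05 and 0.09.
CDC20 (GRCh38.p14, chr1:43358861-43358980, + strand): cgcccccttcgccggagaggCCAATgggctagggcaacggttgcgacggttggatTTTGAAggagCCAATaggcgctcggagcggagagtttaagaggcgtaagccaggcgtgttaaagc
CENPA (GRCh38.p14, chr2:26785936-26786055, + strand): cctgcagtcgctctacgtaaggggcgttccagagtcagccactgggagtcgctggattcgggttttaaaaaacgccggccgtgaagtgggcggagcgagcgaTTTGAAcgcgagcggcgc
CCNB2 (GRCh38.p14, chr15:59105026-59105145, + strand): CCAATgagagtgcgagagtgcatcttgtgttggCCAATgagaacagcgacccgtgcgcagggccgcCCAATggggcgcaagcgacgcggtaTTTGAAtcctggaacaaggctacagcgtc
MKI67 (GRCh38.p14, chr10:128126424-128126543, - strand): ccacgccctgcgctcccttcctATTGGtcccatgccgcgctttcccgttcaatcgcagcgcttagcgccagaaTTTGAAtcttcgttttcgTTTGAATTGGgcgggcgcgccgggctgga
NUSAP1 (GRCh38.p14, chr15:41332761-41332880, + strand): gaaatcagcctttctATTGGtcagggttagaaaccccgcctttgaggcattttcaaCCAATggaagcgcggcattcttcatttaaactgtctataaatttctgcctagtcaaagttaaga
PLK1 (GRCh38.p14, chr16:23678769-23678888, + strand): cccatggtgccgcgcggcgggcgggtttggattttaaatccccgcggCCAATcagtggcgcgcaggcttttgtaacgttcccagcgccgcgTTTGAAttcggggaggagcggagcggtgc
PRC1 (GRCh38.p14, chr15:90994536-90994655, - strand): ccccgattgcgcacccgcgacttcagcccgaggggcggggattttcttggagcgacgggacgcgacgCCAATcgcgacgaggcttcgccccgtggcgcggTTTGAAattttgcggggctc
HMMR (GRCh38.p14, chr5:163460512-163460631, + strand): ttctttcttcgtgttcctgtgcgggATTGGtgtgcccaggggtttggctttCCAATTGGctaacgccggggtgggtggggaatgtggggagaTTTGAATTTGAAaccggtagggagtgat

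For either set of letters, the differences in METS overlapped between members with and without them. Whether the letters bear on these differences was not tested. The 27 members with CHR letters had a median difference from DLD1 of -0.17 in METS (from -1.06 to 0.10), and the 9 without them had -0.23 (from -0.59 to 0.28). The 25 members with CCAAT letters had a median of -0.24 and the 11 without them -0.06, with ranges that overlap. PLK1 holds the CHR letters at position -29 and a CCAAT at -73, counted back from the start, and PRC1 holds them at -20 and -53. PLK1 was lower in METS by -0.34 on the log2 scale and PRC1 by -0.05. NUSAP1, the lowest member, holds the CHR letters at 14 bases after the start, beyond the stretch shown, as well as CCAAT letters at -64 and -105.

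Cyclins and the phosphatases that activate CDK1 were all lowest in METS, the lowest line for 39.4% of all genes tested. CCNB1, the main cyclin partner of CDK1 at mitotic entry, had 80.0 RPKM in DLD1 against 84.4 in SA, 82.6 in SPH and 70.9 in METS. CCNB2, a second B-type cyclin, stood at 49.6, 50.9, 56.4 and 40.5 RPKM, with the lines in this order here and below. CCNA2, the cyclin of S phase and early mitosis, stood at 50.3, 52.1, 51.9 and 42.9 RPKM. METS was thus the low line for each of these cyclins, by -0.17, -0.29 and -0.23 against DLD1 on the log2 scale. CDK1 itself was nearly level at 29.5, 30.15, 30.4 and 28.85 RPKM. The phosphatase gene CDC25C stood at 7.98, 7.55, 8.95 and 5.94 RPKM, and CDC25B at 32.6, 32.8, 32.0 and 31.5. CDC25C was the 1 gene of these 6 a step lower in METS (-0.37), and CDC25B differed from DLD1 by -0.05.

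Among the mitotic kinases and their partners, 5 of 6 were lowest in METS (39.4% of all genes tested). AURKB, the kinase of the chromosomal passenger complex, had 37.8 RPKM in DLD1 against 34.0 in SA, 37.3 in SPH and 28.2 in METS. BIRC5, or survivin, which belongs to the same complex, stood at 39.2, 43.85, 43.75 and 29.2 RPKM. Both were -0.41 against DLD1 in METS, while in SA BIRC5 was above DLD1 and AURKB below it. PLK1, the kinase that acts at centrosomes, kinetochores and the midzone, stood at 29.9, 27.1, 29.3 and 23.35 RPKM. AURKA, the spindle pole kinase, stood at 33.5, 37.1, 39.5 and 27.1 RPKM, and its activator TPX2 at 54.3, 55.4, 54.8 and 46.6. The differences of METS from DLD1 were -0.34 for PLK1, -0.30 for AURKA and -0.22 for TPX2. PLK4, which starts centriole duplication, did not share the low value in METS, at 10.7, 11.9, 12.4 and 10.8 RPKM (0.02, or -0.09 with the GC correction).

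**Figure D3:**
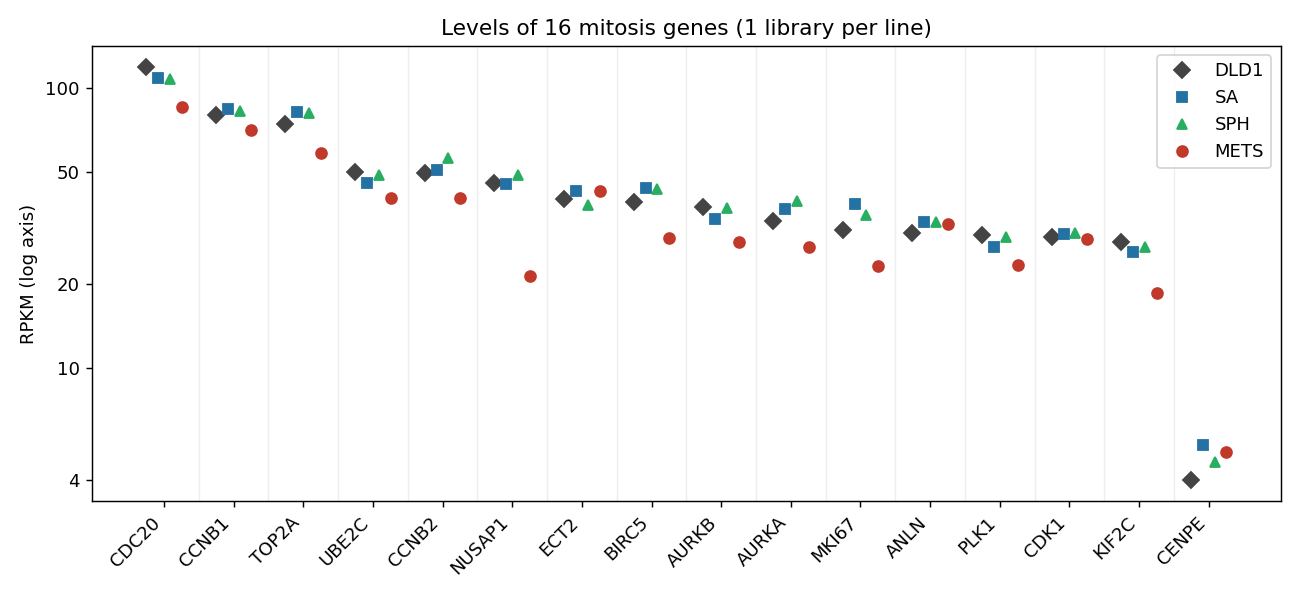
RPKM (log axis) of 16 mitosis genes in DLD1 (diamonds), SA (squares), SPH (triangles) and METS (circles), 1 library per line. METS is the low line for 13 of the 16, where it was lowest for 39.4% of all genes tested. NUSAP1 is at 21.4 RPKM in METS against at least 45.4 elsewhere, and ECT2, ANLN and CENPE do not follow. The members lowest and highest in METS against DLD1 were drawn by choice, so the count of 13 rests in part on that choice.

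Genes of the spindle checkpoint and the anaphase promoting complex did not share 1 size of difference in METS. With the correction for transcript GC content all 7 were below DLD1, from -0.39 (BUB1) to -0.004 (TTK). UBE2C (-0.25) and BUB3 (-0.20) were then close. The values below are uncorrected. CDC20, the checkpoint's target and an activator of the anaphase promoting complex, had the highest level of all members, at 119.2 RPKM in DLD1 against 108.4 in SA, 107.6 in SPH and 85.35 in METS. UBE2C, the ubiquitin-conjugating enzyme of that complex, stood at 50.35, 45.9, 48.95 and 40.5 RPKM. BUB1, a checkpoint kinase, stood at 23.2, 25.02, 27.3 and 18.1 RPKM. These 3 were the lowest of the group in METS against DLD1 (-0.48, -0.31 and -0.34). The remaining checkpoint genes lay closer to the parent. BUB3 stood at 53.6, 55.1, 55.4 and 48.9 RPKM (-0.13 in METS) and BUB1B at 22.2, 22.8, 23.2 and 21.1 (-0.07). The inhibitor MAD2L1 stood at 23.1, 22.3, 23.6 and 23.2 RPKM (0.01) and the kinase TTK at 11.05, 12.1, 12.9 and 11.7 (0.07).

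Centromere and kinetochore genes were mostly above DLD1 in the mesenchymal lines. In SA and in SPH 5 of 6 were above it, where 55.2% and 55.9% of all genes tested were. CENPA, the histone H3 variant that marks centromeres, had 15.2 RPKM in DLD1 against 16.5 in SA, 17.6 in SPH and 11.3 in METS. CENPF, a large kinetochore protein, stood at 15.6, 19.6, 18.3 and 12.9 RPKM. METS was the low line for both, at -0.39 and -0.26 against DLD1. CENPE, the kinetochore motor, ran the other way at 3.99, 5.34, 4.65 and 5.04 RPKM, and it was the member farthest above DLD1 in METS (0.28). Subunits of the NDC80 complex, which holds microtubules, did not share 1 order of lines. NDC80 stood at 8.79, 10.1, 9.83 and 7.65 RPKM, NUF2 at 11.7, 13.1, 14.6 and 11.2, and SPC25 at 10.5, 10.4, 8.96 and 9.78. SPC25 was lowest in SPH, and the other two were lowest in METS.

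All 7 kinesins were lowest in METS (39.4% of all genes tested). KIF2C, which takes microtubules apart at centromeres, had 28.4 RPKM in DLD1 against 26.1 in SA, 27.2 in SPH and 18.5 in METS. KIF20A, which acts in the central spindle, stood at 21.8, 25.03, 26.2 and 16.7 RPKM, and KIF4A, a chromosome and midzone motor, at 11.9, 11.8, 10.9 and 9.04. These 3 were a step lower in METS, at -0.59, -0.37 and -0.37 (log2). KIF2C was the second lowest member, and 3.15% of all genes tested lay below its value. KIF23, which forms centralspindlin with RACGAP1, stood at 15.1, 16.5, 14.7 and 12.6 RPKM. KIF11, which pushes spindle poles apart, stood at 26.6, 29.2, 29.01 and 24.7 RPKM, and KIF15, which can share that task, at 4.31, 5.23, 4.65 and 3.73. KIF14, a cytokinesis motor, stood at 4.21, 4.94, 4.78 and 3.69 RPKM. These 4 lay between -0.24 and -0.10 against DLD1 in METS, and in SA they lay above DLD1.

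The spindle and microtubule proteins held the lowest member and several that were level. NUSAP1, which binds spindle microtubules around chromosomes, had 45.7 RPKM in DLD1 against 45.4 in SA, 48.8 in SPH and 21.4 in METS. The 3 other lines were close together and METS stood far below them, at -1.06 against DLD1 on the log2 scale, with a counting half-width of 0.06. Of all genes tested, 0.718% lay below that value. DLGAP5, which stabilizes kinetochore fibres, stood at 19.2, 21.7, 21.15 and 16.2 RPKM (-0.23 in METS), and CKAP2 at 20.5, 23.1, 23.1 and 19.6 (-0.06). PRC1, which crosslinks antiparallel microtubules, varied least across the lines, at 30.9, 30.05, 30.9 and 29.8 RPKM. HMMR and ASPM, both spindle assembly proteins, were lowest in DLD1. HMMR stood at 18.9, 20.2, 20.4 and 20.15 RPKM and ASPM at 6.94, 8.90, 7.93 and 7.15.

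Cytokinesis genes did not all share the low value in METS. ANLN, the contractile ring scaffold, had 30.45 RPKM in DLD1 against 33.3 in SA, 33.4 in SPH and 32.7 in METS. ECT2, which activates RhoA at the cell equator, stood at 40.1, 42.8, 38.1 and 42.96 RPKM. Both were above DLD1 in METS, by 0.10 each, and with the GC correction ANLN stood at 0.01 and ECT2 at -0.02. RACGAP1, the centralspindlin partner of KIF23 and binding partner of ECT2, stood at 23.45, 25.9, 26.1 and 19.7 RPKM (-0.24 in METS), close to the difference of KIF23.

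The chromosome proteins MKI67 and TOP2A were both a step lower in METS. MKI67, which coats mitotic chromosomes and is the Ki-67 antigen, had 31.3 RPKM in DLD1 against 38.6 in SA, 35.3 in SPH and 23.1 in METS. TOP2A, the topoisomerase that untangles sister chromatids, stood at 74.3, 82.1, 81.5 and 58.4 RPKM. The mesenchymal lines were the high lines for both and METS the low line. The differences from DLD1 were -0.42 and -0.34 in METS, 0.29 and 0.14 in SA, and 0.17 and 0.13 in SPH.

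METS was also compared with the mesenchymal lines directly, which leaves the DLD1 library out. Against SA, 41 of 43 genes were lower in METS (59.1% of all genes tested), and 18 were a step lower (12.6%). Against SPH, 40 of 43 were lower (58.8% of all genes) and 18 a step lower (16.5%). The median difference was -0.27 in both, against -0.05 for all genes tested. ECT2 and MAD2L1 were above SA (40.5% of all genes), and CENPE, ECT2 and SPC25 above SPH (40.8%). No member was a step higher in METS in either comparison (7.91% and 8.65% of all genes). NUSAP1 alone was at least 2-fold lower than SA (1.23% of all genes) and than SPH (1.69%), and no member was 2-fold higher (0.692% and 0.948%). SA and SPH differed little from each other. SPH was below SA for 21 genes and above it for 22, near the shares over all genes (48.3% and 51.2%), and no member was a step lower or higher (3.72% and 6.44% of all genes). Among members the widest difference between these lines was 0.22 for CDC25C. In METS, 21 members lay farther below DLD1 than that (21.3% of all genes tested) and CENPE farther above it (14.4%). SA and SPH are different lines, so their difference is a yardstick and not a replicate error.

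The labels put 2 lines in each class, which allows the 1 test of the design, mesenchymal against epithelial lines. None of the 43 genes passed adjusted p 0.05 (limma-trend), where 0.355% of 11262 genes passed. The unadjusted p was under 0.05 for 4 members, AURKA, CENPF, KIF20A and MKI67, or 9.30% of them, beside 8.65% of all genes tested. An untrended limma fit also called 0 members, with 3 at that unadjusted p. CENPF had the lowest adjusted p among members (adjusted p = 0.48, limma-trend), with a class difference of 0.39 ± 0.13 (log2, SE), and was higher in both mesenchymal lines than in both epithelial lines. MKI67 had a class difference of 0.44 ± 0.16 and KIF20A of 0.41 ± 0.15 (adjusted p = 0.53 for each, limma-trend). The class difference was above 0 for 40 of 43 members and for 60.6% of all genes tested, with medians of 0.17 and 0.04. The spread in this test is between different lines of a class. Because METS lay below DLD1 for most members, the epithelial lines differ from each other, and NUSAP1, with the widest class difference (0.57), had an SE of 0.32. Without the DLD1 library the class difference of NUSAP1 was 1.10. In that fit METS alone stands for the epithelial class and is assumed to vary like the others. That value restates the low level of NUSAP1 in METS.

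Transcript GC content moved with the differences from DLD1. Across the 43 genes, which share the libraries and are not independent replicates, Spearman's rho between GC content and the difference from DLD1 was -0.71 in METS, -0.51 in SA and -0.25 in SPH. Across all genes with a GC value it was -0.43, -0.41 and -0.14. The members are poorer in GC than other genes, with a median of 42.3% (from 35.3% in CENPE to 59.3% in CDC25B) against 48.45% for the genes tested. All 15 members with a GC content of 45% or more were below DLD1 in METS, with a median of -0.37, where the 6390 genes tested at that GC content had a median of -0.10. Of the 13 members under 40%, 7 were below DLD1, with a median of -0.03 against 0.13 for all genes of that GC content. In SA the medians of these 13 and of all genes under 40% were 0.15 and 0.11, and in the 15 members of 45% or more they were -0.01 and -0.04.

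A lowess correction of log2 values for GC content left the median low in METS and brought the medians in SA and SPH closer to 0. After it, Spearman's rho between GC content and the members' difference from DLD1 was still -0.41 in METS. It was -0.18 in SA and -0.07 in SPH. The corrected values of the members in METS are thus not free of a GC trend. With it, 40 of 43 members were below DLD1 in METS, with a median of -0.25, and 50.1% of all genes were. CENPE (0.12), CDC25B (0.11) and ANLN (0.01) were the exceptions. The median of the members became 0.03 in SA, with 24 of 43 above DLD1 and 19 below it, where 49.2% of all genes were below. In SPH it became 0.05, with 28 of 43 above DLD1 and 15 below it, where 50.2% of all genes were below. MKI67 stayed above DLD1 in SA (0.27) and below it in METS (-0.39), and NUSAP1 stood at -1.11 in METS. The share of GC content in the uncorrected differences was not tested further.

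**Figure D4:**
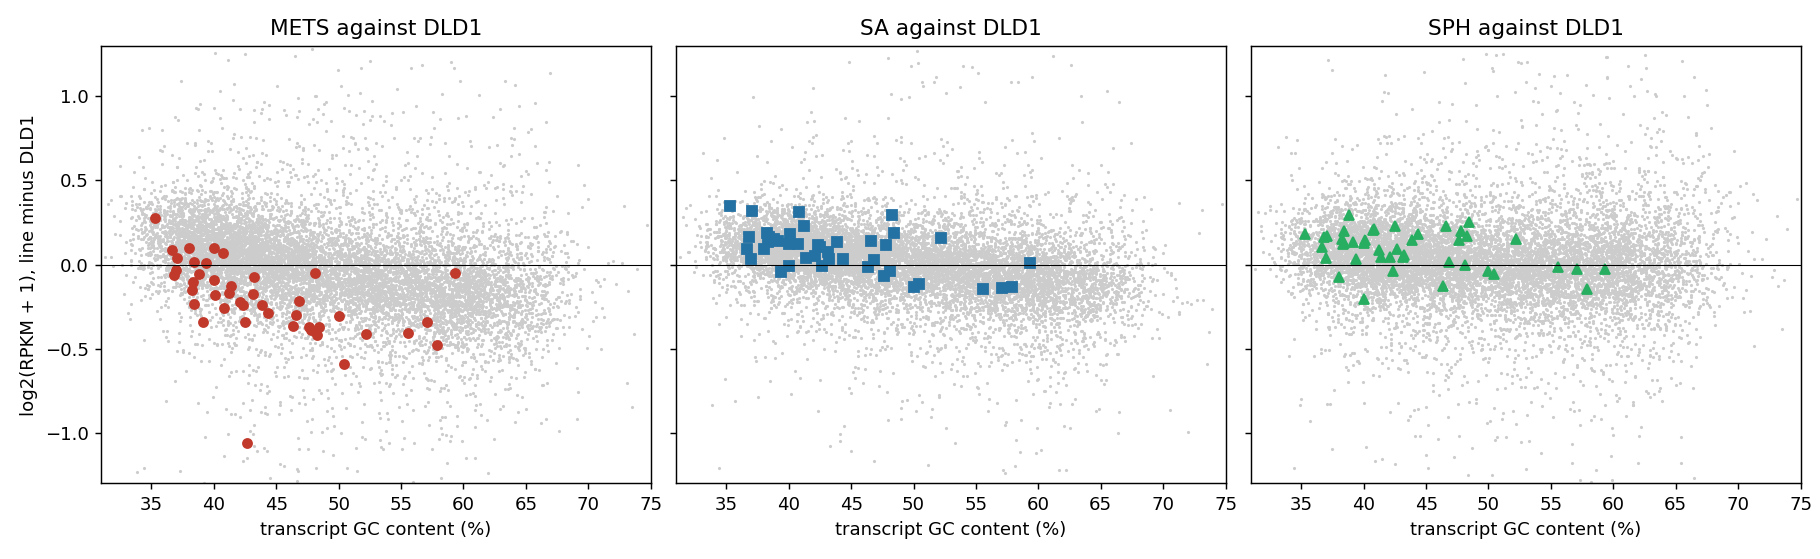
Difference of log2(RPKM + 1) from DLD1 (y axis; genes beyond its ends are not shown) against transcript GC content (x axis, percent) for all genes tested (grey) and the 43 mitosis genes (coloured) in METS, SA and SPH. In METS the members of 45% GC or more have a median of -0.37 against -0.10 for all genes, and those under 40% have -0.03 against 0.13; in SA the medians are -0.01 against -0.04 and 0.15 against 0.11.

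Other genes of the mitotic machinery were given in 6 further lists, and DNA replication and G1 control in another pair. Over all genes tested, 54.9% were below DLD1 in METS, 12.0% were a step lower and 7.46% a step higher. In METS, 24 of 31 other centromere and kinetochore genes were below DLD1 (median -0.19), 4 by a step, and 2 were a step higher. HJURP, the chaperone that loads CENPA, stood at 24.4, 25.9, 26.7 and 16.2 RPKM (-0.56 in METS). DSN1, a kinetochore subunit, stood at 13.2, 12.9, 13.0 and 9.63 RPKM, while CENPQ and CENPK were highest in METS (0.34 each). Of 24 cohesin, condensin and passenger genes 19 were below DLD1 (median -0.10), 10 by a step. Lowest were separase, ESPL1, at 8, 8.12, 7.18 and 4.63 RPKM (-0.68) and the condensin subunit NCAPD2 at 41.4, 43.1, 45.8 and 26.6 (-0.62). The cohesin genes STAG2 (0.14) and WAPL (0.06) were the highest of that list.

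Spindle, centrosome and motor genes outside the 43 had a median of -0.28 in METS. Of 27 such genes 22 were below DLD1 and 10 by a step (54.9% and 12.0% of all genes tested). With the GC correction that median was -0.17, and it was -0.22 for the cohesin, condensin and passenger genes. STMN1, which destabilizes microtubules, stood at 37.6, 42.3, 42.7 and 18.0 RPKM (-1.02). The gamma-tubulin gene TUBG1 stood at 24.25, 19.3, 20.1 and 16.2 RPKM (-0.55), lower in all 3 derived lines. The centriole genes CEP152 (0.26) and SASS6 (0.16) were above DLD1. The anaphase promoting complex was nearly level (median -0.04, or -0.08 with the GC correction). Of its 17 genes 10 were below DLD1, 1 by a step, where 54.9% and 12.0% of all genes tested were. Its activator FZR1 stood at -0.34 and its subunit ANAPC2 at -0.29, and ANAPC4 (0.21) and ANAPC10 (0.20) were the highest. Of 14 other mitotic entry genes 10 were below DLD1 (median -0.09, or -0.14 with the GC correction), 3 by a step, with GTSE1 (-0.56) and CCNF (-0.43) lowest and ARPP19 (0.30) and CDC25A (0.12) highest.

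The list of G2/M transcription control, which also holds the E2F and TFDP genes and MuvB subunits, was nearly level in METS as a group. Of its 21 genes 13 were below DLD1 in METS (median -0.02), with 1 a step lower, where 54.9% and 12.0% of all genes tested were. That gene, FOXM1, which activates many mitosis genes, stood at 39.2, 38.8, 34.9 and 24.8 RPKM (-0.64 in METS). LIN37, a MuvB subunit, stood at -0.31, at low levels of 1.2 RPKM in DLD1 and 0.78 in METS. RBL2, a pocket protein of the repressor DREAM, and NFYB were the highest (0.30 and 0.22). MYBL2, which joins MuvB to activate these genes and is named after its values were seen, was low in SA and SPH, at 46.2, 34.9, 32.9 and 42.4 RPKM (adjusted p = 0.40 in the class test, limma-trend). Of the 190 genes of the 8 further lists in the class test, 0 passed adjusted p 0.05 (limma-trend), where 0.355% of all genes tested passed. The unadjusted p was under 0.05 for 11 of the 190, where it was for 8.65% of all genes tested.

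Replication genes lay below DLD1 in METS and in SPH. In METS 35 of 43 replication genes were below DLD1 (median -0.25), 12 by a step, where 54.9% and 12.0% of all genes tested were. CDT1, the licensing factor, stood at 17.3, 14.3, 15.1 and 10.8 RPKM (-0.64), and thymidine kinase, TK1, at 158, 138, 140.3 and 109 (-0.54). ORC4 (0.17) and ORC6 (0.14) were the highest. In SPH 36 of 43 replication genes were below DLD1 (median -0.12), where 11 of 43 mitosis genes were (median 0.12). In SA 20 replication genes were below DLD1 (median 0.01). Of all genes tested 43.6% were below DLD1 in SPH and 44.4% in SA. Whether the lists differ was not tested. Among 13 genes of G1 control 7 were below DLD1 in METS, where 54.9% of all genes tested were. The CDK inhibitor CDKN1C (2.11) and CDK6 (0.73) were the highest, at 13.1 and 4.10 RPKM in METS against 2.27 and 2.07 in DLD1, and the inhibitors CDKN2C (-0.75) and CDKN2D (-0.35) the lowest.

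**Figure D5:**
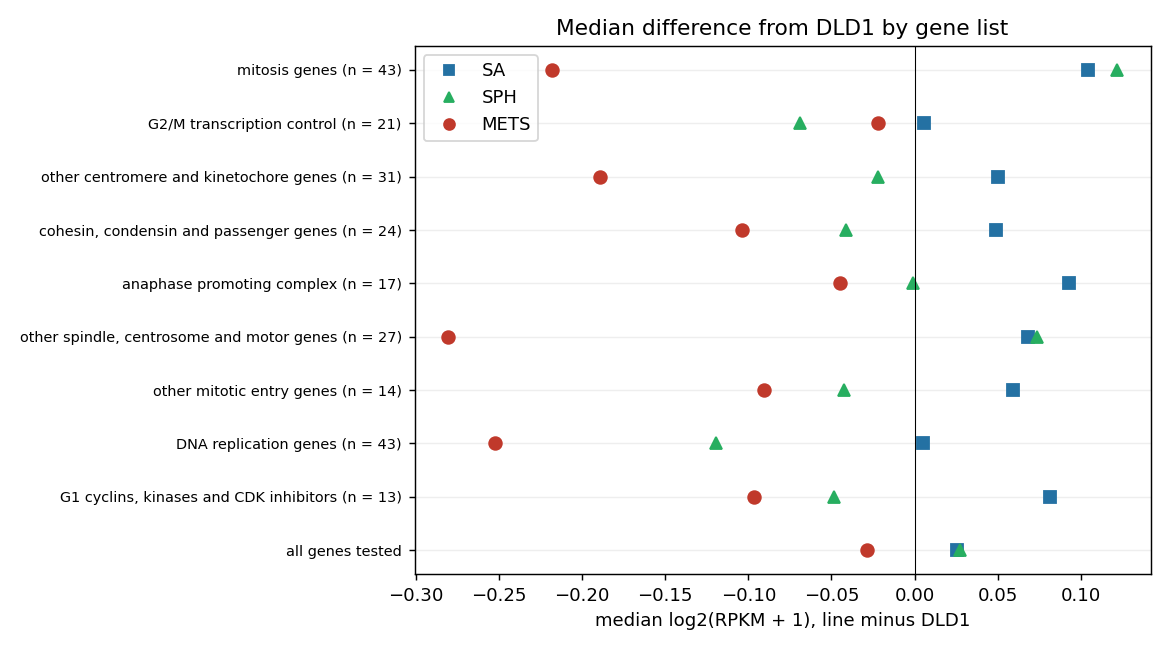
Median difference of log2(RPKM + 1) from DLD1 (x axis) for the 43 mitosis genes, 8 other gene lists and all genes tested, in SA (squares), SPH (triangles) and METS (circles). METS lies left of 0 for each list, from -0.28 to -0.02, and the mitosis genes have the rightmost medians for SA (0.10) and SPH (0.12). The anaphase promoting complex is close in SA (0.09). With the GC correction, not drawn, the SA medians are 0.03 for the mitosis genes and 0.05 for other spindle, centrosome and motor genes. The SPH medians of these lists are then 0.05 and 0.04.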

How the data were processed

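Per the file headers, the authors deposited gene symbols and 1 column for each of 4 lines, given to 2 decimals. No header names the unit. The deposited values were read as RPKM since they hold fractions, columns sum to unequal totals (275639 to 284919), and multiplying by GENCODE 29 gene length in kb gave sums of 915147 to 926155 over 34098 genes. Per the submitters' processing notes the build was hg19. Aligner, counter, annotation and use of strand: not given in the sources used here. Reads of overlapping genes and near-identical copies cannot be told apart.

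Values were compared as log2(RPKM + 1), which understates changes of low genes. A pair of lines was compared over genes whose higher library reached 1 RPKM, with no test since each line has 1 library. The class test used limma-trend (limma 3.58.1, R 4.3.3) over genes that reached 1 RPKM in 2 or more of the 4 libraries, with Benjamini-Hochberg adjustment, and was tested on simulated data. Each class holds 2 different lines with 1 library each, so the p-values of the class test measure the spread between lines. The labels do not say which lines were grown in parallel. GC content came from the longest GENCODE 29 transcript of a gene, and the correction used lowess with span 0.3 (statsmodels 0.14.6). Depth was estimated from the steps of values under 1 RPKM of genes of 200 to 500 bases. Counting half-widths cover counting error alone. Promoters came from RefSeq (GRCh38.p14), and the first bases after the start lay in a GENCODE transcript of the gene for 32 of 36. They did not for CDC20, KIF11, KIF14 and MKI67.

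All 43 members are named, and every other list by its 2 lowest and 2 highest genes in METS against DLD1. The members and lists were chosen with earlier results of these data known. RBL1 and CKS1B, 2 genes of the lists, were not analysed here. Alternatives were pseudocounts of 0.1 and 5, no filter and a minimum of 5 RPKM, median-of-ratios scaling, rescaling without mitochondrially encoded transcripts, the GC correction, an untrended limma fit, and leaving out each library. Analyses used Python 3.11.15, pandas 2.3.3 and scipy 1.17.1.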

Additional observations from a re-analysis of the deposited data

How the results depend on the processing

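The median difference of the mitosis genes from DLD1 kept its sign in METS, SA and SPH under each of the 7 alternatives to the values. It ran from -0.25 to -0.185 in METS. The GC correction brought it from 0.10 to 0.029 in SA, where 19 members rather than 11 were then below DLD1, and from 0.12 to 0.048 in SPH, where 15 were. Of all genes, 49.2% in SA and 50.2% in SPH were below DLD1 with that correction. In METS 34 members were below DLD1 with median-of-ratios scaling and 40 with the GC correction, where 50.1% of all genes were in each. The number of members lower in METS by at least 0.32 (log2) was 6 with a pseudocount of 5, which shrinks each fold, and 10 to 13 otherwise. METS was lowest of the 4 lines for 31 to 36 members. The matching shares over all genes are given for the main setting alone (12.0% lower by that step, 39.4% with METS lowest). These counts therefore show how the members moved, and not how they compare with all genes under an alternative. In the class test the number of genes past adjusted p 0.05 (limma-trend) was 26 with a pseudocount of 0.1, 0 with no filter (2227 at an unadjusted p under 0.05) and 5 with a minimum of 5 RPKM, against 40; the cause was not tested. Leaving out 1 library gave 5 (without SA) to 305 (without DLD1) genes, 6 without SPH and 27 without METS, and 0 to 1 member, NUSAP1 without DLD1. No paired analysis was possible because each line has 1 library and the labels give no replicate numbers. Counting error is the 1 error that these libraries give; spread between cultures is unknown.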

Other observations

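NUSAP1 lies on chromosome 15 between OIP5, a centromere gene, and NDUFAF1, an assembly factor of respiratory complex I. OIP5 had 14.6 RPKM in DLD1 against 15.4 in SA, 16.1 in SPH and 11.96 in METS, a difference of -0.27 on the log2 scale in METS. NDUFAF1 stood at 10.15, 11.98, 10.3 and 12.2 RPKM (0.24 in METS), and the next genes, CHP1 and RTF1, at 0.21 and -0.06. None of these neighbours shared the difference of -1.06 seen for NUSAP1. The other 4 members on chromosome 15, CCNB2, BUB1B, KIF23 and PRC1, stood between -0.29 and -0.05 in METS.

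All 3 derived lines are compared with the same DLD1 library. Against it 8 members were lower in all 3, where 21.6% of all genes tested were: AURKB, PLK1, CDC20, UBE2C, SPC25, KIF2C, KIF4A and PRC1. Another 6 were higher in all 3, where 24.3% of all genes tested were: PLK4, TTK, CENPE, ASPM, HMMR and ANLN. The first group had GC contents from 40.03% (SPC25) to 57.9% (CDC20) and the second from 35.3% (CENPE) to 40.8% (TTK). These groups were formed after their values were seen and were not tested.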
